A study of Mus musculus with 6 samples.

Results

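Oxidative phosphorylation genes were taken from a table of 18227 mouse genes by their symbols: the mt-Nd, mt-Co, mt-Cytb and mt-Atp genes of mitochondrial DNA, and the nuclear Nduf, Sdh, Uqcr, Cox4 to Cox8 and Atp5 genes. This gave 106 genes. They were 13 genes of mitochondrial DNA, 84 nuclear genes for subunits, 8 Ndufaf genes for complex I assembly factors and 1 pseudogene, Cox5b-ps, which had 1 count in a single library and was not tested. The genes were read in whole corneas of male C57BL/6 mice aged 6 weeks, kept under SPF conditions with a 12-h light/dark cycle. The 3 libraries of Muc13-/- mice, which lack the transmembrane mucin Muc13, are called KO 1 to 3 and the 3 libraries of WT mice are called WT 1 to 3. The number of mice behind a sample and the way the Muc13 allele was made are not in the labels, so p-values measure only the spread between these samples, which may be technical.

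Oxidative phosphorylation is run by 5 complexes of the inner mitochondrial membrane. Complex I (NADH dehydrogenase) and complex II (succinate dehydrogenase) feed electrons to ubiquinone, complex III passes them to cytochrome c, complex IV (cytochrome c oxidase) reduces oxygen, and complex V (ATP synthase) uses the proton gradient to make ATP. Mitochondrial DNA encodes a few core subunits of complexes I, III, IV and V and none of complex II, so each of the other complexes is built from the products of 2 genomes. In the eye, photoreceptors and extraocular muscle are known for dense mitochondria, and the corneal endothelium uses mitochondrial ATP to pump fluid out of the stroma.

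The libraries held 1.41e+07, 1.48e+07 and 1.45e+07 expected counts in KO 1 to 3, against 1.55e+07, 1.51e+07 and 1.49e+07 in WT 1 to 3. Muc13 had 9, 4 and 2 counts in KO 1 to 3, against 18, 21 and 9 counts in WT 1 to 3. It was thus near the detection limit in both groups, and the check of the genotype rests on few reads. KO 1 and WT 3 had the same 9 counts, so Muc13 did not set these libraries apart. CPM values (counts per 1e+06) are scaled between libraries by TMM, and coordinates are those of GENCODE M21 on GRCm38. The 8 cornea markers, among them the epithelial keratin Krt12, summed to 31976, 32428 and 5529 CPM in KO 1 to 3, against 105938, 83054 and 25685 CPM in WT 1 to 3. All 8 were detected in every library. The sum is carried mostly by Krt12, Krt5 and Aldh3a1, which were lowest in KO 3, while the stromal gene Lum was lowest in WT 1 and Pax6 lowest in KO 1. The 7 retina markers, such as rhodopsin, summed to 32858, 18719.9 and 19682 CPM in KO 1 to 3, against 60.5, 215 and 20966 CPM in WT 1 to 3. The 7 skeletal and extraocular muscle markers summed to 61.5, 593 and 332 CPM in KO 1 to 3, against 2573, 2106 and 223 CPM in WT 1 to 3. The 5 iris and melanocyte markers summed to 896, 1732 and 6331 CPM in KO 1 to 3, against 11.1, 415 and 2685 CPM in WT 1 to 3. The 5 lens markers summed to 2251, 46500.2 and 28.7 CPM in KO 1 to 3, against 11.4, 2039 and 27124 CPM in WT 1 to 3, and 3 of them were at 0 counts in WT 1. By these sums WT 1 and WT 2 were the lowest libraries in retina and pigment markers and the highest in muscle and cornea markers, and KO 3 was the lowest in cornea markers and the highest in pigment markers. In whole tissue, fewer cells of a type and less RNA per cell cannot be told apart, and the part of other tissues in the results below was not tested.

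No oxidative phosphorylation gene passed the test for a difference between Muc13-/- and WT corneas. In edgeR's quasi-likelihood test, 0 of the 105 genes tested had an adjusted p under 0.05, and the smallest adjusted p was 0.501. No gene of the whole table passed either (0 of 14983 tested, or 0%). At an unadjusted p under 0.05, 0 of the 105 lay lower or higher, against 548 lower (3.66%) and 108 higher of all genes tested. With limma-voom 0 genes passed. The DESeq2 Wald test called 69 genes of the table, and 0 of them were oxidative phosphorylation genes. Without WT 3, 8 oxidative phosphorylation genes passed, among 5166 in the whole table.

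Most of the genes lay slightly lower in the knockout with TMM scaling and all 6 libraries, and slightly higher without WT 1 and WT 2. The log2 fold change, knockout over WT, was below 0 for 87 of the 105 genes and above 0 for 18, with a median of −0.25, beside a median of 0.02 over all genes tested. The nuclear subunit genes had a median of −0.28, with 71 of 84 below 0. The mitochondrially encoded genes had a median of −0.11, with 12 of 13 below 0 and a range of −0.69 to 0.03. The 2 medians depended on single libraries. The mitochondrial median was 0.34 without WT 1, 0.12 without KO 1, 0.04 without KO 2 and −0.65 without KO 3, and the nuclear median was −0.02 without WT 1. With both WT 1 and WT 2 left out they were 0.43 and 0.12, and 12 of the 105 genes lay below 0. With scaling by library size alone the median of all genes moved to 0.19, and 5668 of 14983 lay below 0, against 7274 with TMM. The mitochondrial median was then 0.13, with 5 of 13 below 0, and the nuclear median −0.07, with 52 of 84 below 0.

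**Figure D1:**
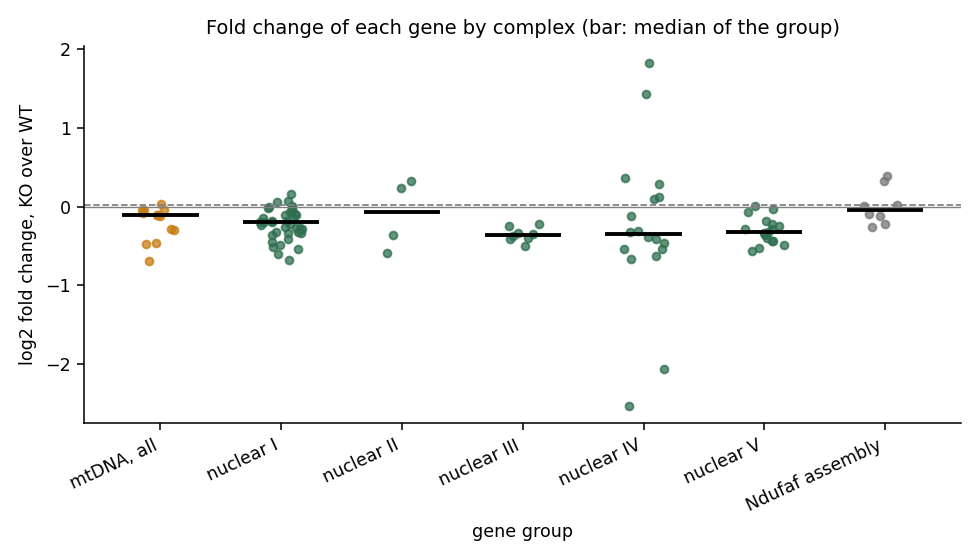
The log2 fold change of each gene, knockout over WT, is plotted for the mitochondrially encoded genes (mtDNA), the nuclear subunits of complexes I to V and the assembly factors. Black bars are group medians, the dashed line is the median of all genes tested (0.02), and the points farthest from 0 are tissue isoforms of complex IV.

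Knockout and WT values separated without overlap for only 4 of the 105 genes. The assembly factor Ndufaf1 was lower in each knockout library than in each WT library (all genes tested, 5.51%). Ndufaf5, Sdha and Cox4i2 were higher in each knockout library (all genes tested, 4.71%). The shares among the 105 genes were thus no larger than among all genes, and none of the 4 passed the test. These groups are apart in TMM-scaled CPM. In unscaled counts KO 2 lay below WT 3 for Sdha (3715 and 3919 counts) and Cox4i2 (113 and 120 counts), KO 3 lay above each WT library for Ndufaf1, and Ndufaf5 stayed apart.

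Mitochondrially encoded RNA varied more between libraries of one genotype than between the genotypes. Of all counts, the 13 genes took 3.97, 4.29 and 10.6% in KO 1 to 3, against 8.48, 4.64 and 4.48% in WT 1 to 3. KO 3 and WT 1 were high and the other 4 libraries were close together, so each genotype had 1 high library. On the TPM scale, which corrects for gene length, the 13 genes took 14.4, 13.1 and 31.2% in KO 1 to 3, against 23.02, 14.5 and 14.8% in WT 1 to 3, with KO 3 and WT 1 again on top. Of all counts, the 84 nuclear subunit genes took 0.800, 0.834 and 1.09% in KO 1 to 3, against 1.04, 0.868 and 0.840% in WT 1 to 3, and the same 2 libraries were highest.

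The ratio of mitochondrial to nuclear subunit counts was 4.97, 5.15 and 9.78 in KO 1 to 3, against 8.14, 5.34 and 5.33 in WT 1 to 3. It does not depend on scaling between libraries. It averaged 6.63 ± 2.73 in the knockout and 6.27 ± 1.62 in WT (SD, n = 3 each), and the groups overlapped. In the 4 complexes built from both genomes the ratio was highest in KO 3 and next highest in WT 1. For complex IV it was 12.4, 11.8 and 24.2 in KO 1 to 3, against 18.9, 12.96 and 12.9 in WT 1 to 3, and for complex V, where mitochondrial DNA encodes only 2 subunits, 1.08, 1.23 and 2.44 in KO 1 to 3, against 1.89, 1.24 and 1.19 in WT 1 to 3. Complex I had 5.41, 5.53 and 9.77 in KO 1 to 3, against 8.30, 5.61 and 5.67 in WT 1 to 3, and complex III 7.12, 7.57 and 14.4 in KO 1 to 3, against 9.99, 6.56 and 8.20 in WT 1 to 3. The fold between the highest and the lowest library in CPM had a median of 2.87 for the mitochondrial genes (2.21 to 3.65), of 1.89 for the 78 nuclear subunit genes other than 6 tissue isoforms (1.21 to 2.61) and of 2.39 for all genes tested with counts in every library.

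**Figure D2:**
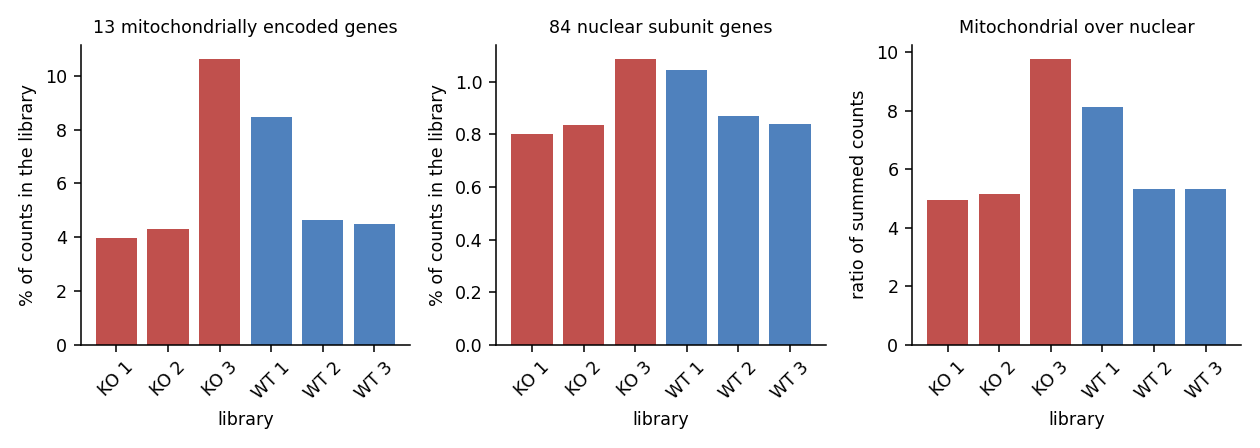
Bars give, for each library, the percent of all counts in the 13 mitochondrially encoded genes (left) and in the 84 nuclear subunit genes (middle), and the ratio of the 2 sums (right). KO 3 (10.6% mitochondrial) and WT 1 (8.48%) stand above the other 4 libraries, which lie between 3.97% and 4.64%.

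Which of the 2 high libraries came first depended on the scaling. In TMM-scaled CPM the mitochondrial genes summed to 37052, 43031 and 94976 CPM in KO 1 to 3, against 102141, 49869.6 and 41563 CPM in WT 1 to 3, and KO 3 was the highest library for 4 of the 13 genes and WT 1 for 9. By share of raw counts KO 3 was highest for 10 and WT 1 for 3. Of the 84 nuclear subunit genes, 15 were highest in KO 3 and 66 in WT 1 by CPM, beside 24.1% and 30.4% of all genes tested. By share of raw counts 35 were highest in KO 3 and 45 in WT 1, beside 33.5% and 16.2% of all genes. KO 1 was the lowest library by CPM for 11 of 13 mitochondrial and 56 of 84 nuclear genes, beside 2263 of all 14983 genes tested.

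The libraries of 1 genotype kept the same order in each complex by TMM-scaled CPM, whereas the order across genotypes varied. The median log2 CPM of the nuclear subunit genes, relative to each gene's mean over the 6 libraries, was −0.32, −0.12 and 0.08 in KO 1 to 3, against 0.56, 0.04 and −0.21 in WT 1 to 3. That of the mitochondrial genes was −0.63, −0.39 and 0.75 in KO 1 to 3, against 0.82, −0.17 and −0.39 in WT 1 to 3. For the mitochondrial genes and for each of the 5 nuclear complexes, KO 3 was the highest and KO 1 the lowest knockout library, and WT 1 was the highest and WT 3 the lowest WT library.

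**Figure D3:**
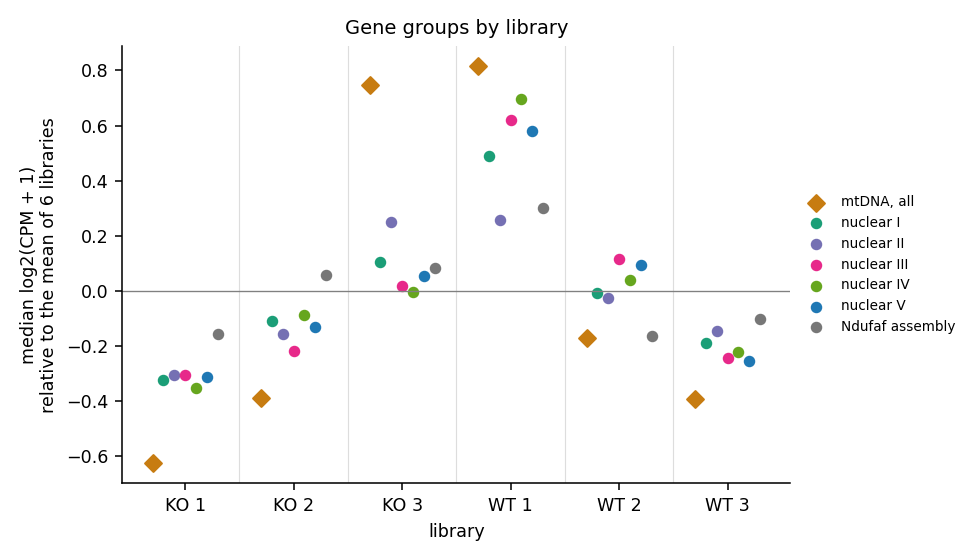
For each library, points give the median log2(CPM + 1) of a gene group relative to each gene's mean over 6 libraries. Mitochondrially encoded genes (diamonds) spread from −0.63 in KO 1 to 0.82 in WT 1, and the nuclear complexes span a smaller range.

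The mitochondrial genome carries its messenger genes on chrM, most on 1 strand and adjoining or overlapping each other. Their TPM medians ran from 107 for mt-Nd6 (ENSMUSG00000064368, chrM:13552-14070, minus strand), the only one on the minus strand, to 35855 for mt-Atp8 (ENSMUSG00000064356, chrM:7766-7969, plus strand). The median of the 13 was 9699.5 TPM, beside 219 TPM for the nuclear subunit genes. In KO 1 mt-Atp8 had 1077 counts and 34212 TPM, against 45713 counts and 12652 TPM for mt-Atp6 (chrM:7927-8607). Per base of annotated length mt-Atp6 thus had more counts, the reverse of the TPM order. Levels by TPM are uncertain for genes this short. mt-Atp8 shares bases with mt-Atp6, mt-Atp6 with mt-Co3, mt-Nd4l with mt-Nd4, and mt-Nd6 with mt-Nd5 on the other strand. The sources used here do not say whether counting used strand, so reads in these overlaps are uncertain.

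mt-Co1, which encodes the catalytic subunit of complex IV and had the most counts of the 106 genes, was at 8590.02, 9649.9 and 21670.3 CPM in KO 1 to 3, against 26721, 12891 and 9620.5 CPM in WT 1 to 3. Its log2 fold change was −0.30 (SE 0.736), and it was 0.24 without WT 1. KO 3 and WT 1 were the 2 high libraries and the groups overlapped. mt-Nd5, a proton-pumping subunit of complex I, was at 2383, 2758 and 4282 CPM in KO 1 to 3, against 4741, 2147 and 2341 CPM in WT 1 to 3 (log2 fold change 0.03, SE 0.527), the single mitochondrial gene above 0. mt-Cytb, the mitochondrial subunit of complex III, was at 4909, 5401 and 12043 CPM in KO 1 to 3, against 12314, 6057 and 5694 CPM in WT 1 to 3. mt-Nd6, another membrane subunit of complex I, was at 10.01, 17.9 and 36.5 CPM in KO 1 to 3, against 28.5, 19.2 and 21.4 CPM in WT 1 to 3, highest in KO 3 and lowest in KO 1.

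mt-Atp8 and mt-Nd4l, the 2 shortest mitochondrial genes, had fold changes among the lowest of the 13. mt-Atp8 was at 71.4, 81.5 and 133 CPM in KO 1 to 3, against 234, 125 and 103 CPM in WT 1 to 3 (log2 fold change −0.69, SE 0.414), with WT 1 highest and KO 3 above WT 2. mt-Nd4l was at 194, 247 and 295 CPM in KO 1 to 3, against 527, 268 and 225 CPM in WT 1 to 3 (log2 fold change −0.47, SE 0.403). Relative to its neighbour mt-Nd4, mt-Nd4l had a TPM ratio of 2.04, 1.91 and 1.07 in KO 1 to 3, against 1.80, 1.66 and 1.64 in WT 1 to 3, and KO 3 stood below the other 5 libraries. mt-Atp8 over mt-Atp6 was 2.70, 2.50 and 1.82 in KO 1 to 3, against 2.99, 2.76 and 2.69 in WT 1 to 3, again lowest in KO 3. The genes of each pair are read from a shared transcript. In CPM both genes were highest in WT 1, with KO 3 next. Fragment lengths and RNA quality were not analysed here. Per base of annotated length the longer gene of each pair had more counts in every library, so the TPM ratios were compared only between libraries.

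Within the mitochondrial counts, mt-Co1 took 23.2, 22.4 and 22.8% in KO 1 to 3, against 26.2, 25.9 and 23.1% in WT 1 to 3. The share was highest in WT 1 and WT 2, and in WT 3 it lay within the knockout range. mt-Nd5 took 6.43, 6.41 and 4.51% in KO 1 to 3, against 4.64, 4.31 and 5.63% in WT 1 to 3, with KO 1 and KO 2 highest. mt-Nd2, a complex I subunit, took 4.11, 3.47 and 3.42% in KO 1 to 3, against 4.73, 4.29 and 4.23% in WT 1 to 3. The TPM ratio of mt-Nd2 to mt-Nd1, 2 complex I genes side by side, was 0.452, 0.408 and 0.385 in KO 1 to 3, against 0.562, 0.490 and 0.466 in WT 1 to 3, lower in each knockout library than in each WT library. This ratio was picked after the values were seen and carries no test.

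Complex I is the largest complex. Of its 37 nuclear genes 33 lay below 0, around a median of −0.20, but without WT 1 alone 16 of 37 lay below 0 and the median was 0.012. The 7 core subunits, which carry the flavin and iron-sulphur clusters, had a median of −0.19 and the 30 accessory subunits −0.21. Ndufs4 (ENSMUSG00000021764, chr13:114287795-114388258, minus strand), an accessory subunit of the NADH-binding arm, had 617, 654 and 627 counts in KO 1 to 3, against 1153, 934 and 686 counts in WT 1 to 3. The knockout libraries lay close together and below every WT library in counts, but in CPM WT 3 lay between them. Ndufs4 averaged 41.2 ± 2.78 CPM over the 3 knockout libraries and 66.3 ± 23.5 CPM over the 3 WT libraries (SD), with a log2 fold change of −0.68 (SE 0.288) and an edgeR adjusted p of 0.501. Ndufa8 (ENSMUSG00000026895, chr2:36036326-36049406, minus strand), an accessory subunit of the membrane arm facing the intermembrane space, was at 56.2, 61.9 and 58.5 CPM in KO 1 to 3, against 106, 87.4 and 58.9 CPM in WT 1 to 3 (log2 fold change −0.52, SE 0.242). WT 1 and WT 2 were high and WT 3 lay within the knockout range.

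Among the core subunits, Ndufv1, which binds NADH and the flavin, was at 129.6, 115 and 129.995 CPM in KO 1 to 3, against 185, 136 and 108 CPM in WT 1 to 3. It was highest in WT 1, and the groups overlapped. In TPM the nuclear complex I genes ran from 44.4 for the core subunit Ndufs1 to 412 for the accessory subunit Ndufa1. Ndufb9, Ndufab1 and, in complex V, Atp5md had counts that were not whole in some libraries. Whether they share reads with other genes was not examined.

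The 8 Ndufaf assembly factors, which help to build complex I but are not part of it, had a median of 15.9 TPM. Their median log2 fold change was −0.04, with 4 below 0 and 4 above, and 0.15 with library size alone. Ndufaf1 (ENSMUSG00000027305, chr2:119655446-119662827, minus strand), part of the complex that assembles the membrane arm, was at 8.82, 10.9 and 11.6 CPM in KO 1 to 3, against 13.8, 12.1 and 11.7 CPM in WT 1 to 3 (log2 fold change −0.26, SE 0.234). The nearest libraries, KO 3 and WT 3, differed by less than the spread within either group. Ndufaf5 (ENSMUSG00000027384, chr2:140170649-140203689, plus strand), an enzyme that hydroxylates a core subunit, was at 9.35, 8.71 and 9.12 CPM in KO 1 to 3, against 7.86, 4.90 and 7.92 CPM in WT 1 to 3 (log2 fold change 0.39, SE 0.307), with WT 2 low and WT 1 and WT 3 just under the knockout libraries. Ndufaf4 was at 19.6, 19.7 and 26.3 CPM in KO 1 to 3, against 17.5, 14.2 and 20.4 CPM in WT 1 to 3 (log2 fold change 0.33, SE 0.231), and Ndufaf7, a mitochondrial methyltransferase, at 17.3, 16.9 and 20.9 CPM in KO 1 to 3, against 24.4, 19.5 and 16.1 CPM in WT 1 to 3.

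Complex II has only nuclear genes, and its 4 genes did not share a direction. Sdha (ENSMUSG00000021577, chr13:74322254-74350280, minus strand), the flavoprotein that oxidises succinate, was at 266, 251 and 319.7 CPM in KO 1 to 3, against 249, 217 and 244 CPM in WT 1 to 3, higher in each knockout library than in each WT library, but with KO 2 and WT 1 almost equal. Its log2 fold change was 0.23 (SE 0.212). Sdhb (ENSMUSG00000009863, chr4:140961203-140979193, plus strand), the iron-sulphur subunit, was at 62.5, 78.6 and 89.3 CPM in KO 1 to 3, against 163, 112 and 72.00 CPM in WT 1 to 3 (log2 fold change −0.59, SE 0.336), highest in WT 1 and WT 2. Sdhc, a membrane anchor, was at 62.9, 66.8 and 116 CPM in KO 1 to 3, against 63.6, 60.3 and 72.8 CPM in WT 1 to 3 (log2 fold change 0.32, SE 0.280), with KO 3 above the other 5 libraries. Sdhd, the other anchor, was at 53.8, 59.4 and 82.2 CPM in KO 1 to 3, against 107, 82.3 and 61.97 CPM in WT 1 to 3 (log2 fold change −0.36, SE 0.274).

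The ratios between these genes differed in which libraries they set apart. In TPM, Sdhb over Sdha was 0.725, 0.960 and 0.858 in KO 1 to 3, against 2.00, 1.57 and 0.899 in WT 1 to 3, with WT 3 inside the knockout range. Sdhc over Sdha was 0.353, 0.469 and 0.670 in KO 1 to 3, against 0.429, 0.477 and 0.391 in WT 1 to 3, highest in KO 3, with each WT library inside the knockout range. Sdhb over Sdhc was 2.05, 2.05 and 1.28 in KO 1 to 3, against 4.66, 3.29 and 2.30 in WT 1 to 3, lower in each knockout library than in each WT library. This last ratio was also picked after the values were seen and carries no test. WT 1 and WT 2 had the highest Sdhb ratios. They were also the lowest libraries in retina and pigment markers and the highest in muscle and cornea markers.

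**Figure D4:**
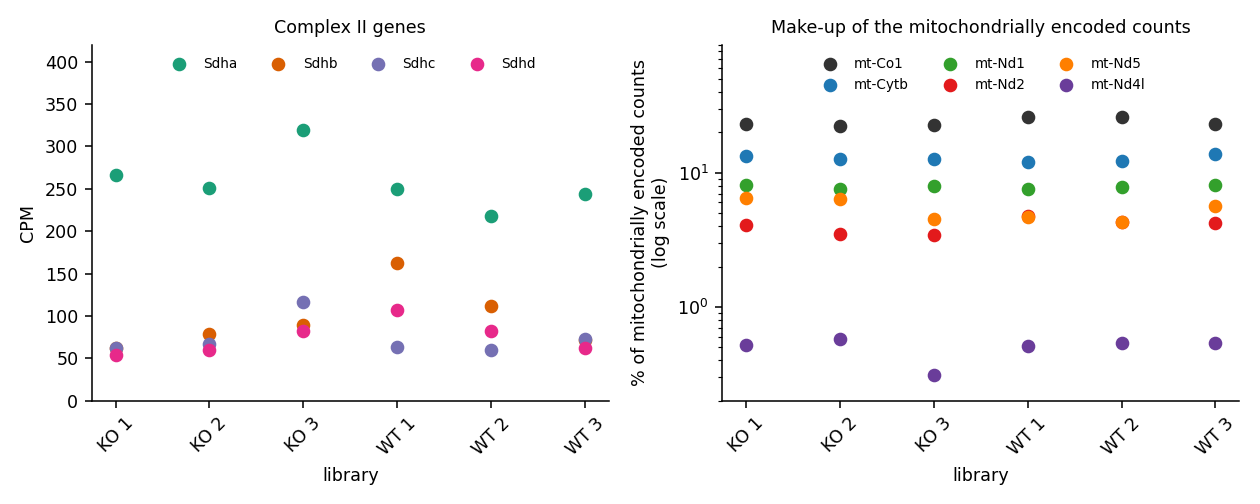
The left panel plots the CPM of the 4 complex II genes in each library, and the right panel plots 6 mitochondrially encoded genes as a percent of all mitochondrially encoded counts on a log axis. Sdha lies above the other 3 genes in every library, Sdhb and Sdhd are highest in WT 1, and mt-Nd4l is lowest in KO 3.

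Complex III had 8 nuclear genes, all with a log2 fold change below 0 (−0.50 to −0.22, median −0.36). None had groups that did not overlap. Uqcrb (ENSMUSG00000021520, chr13:66900617-66905378, minus strand), a small subunit by the ubiquinone site, was at 71.01, 60.9 and 71.7 CPM in KO 1 to 3, against 132, 89.6 and 66.6 CPM in WT 1 to 3 (log2 fold change −0.50, SE 0.278), and its exons overlap Gm10767 on the other strand. Uqcrc2, a core protein that faces the matrix, was at 115, 112 and 126 CPM in KO 1 to 3, against 201, 149.6 and 113 CPM in WT 1 to 3 (log2 fold change −0.39, SE 0.253), with an overlap with Pdzd9 on the other strand. Its partner Uqcrc1 was at 172, 157 and 157 CPM in KO 1 to 3, against 231, 233 and 148 CPM in WT 1 to 3. In all 3 genes WT 1 and WT 2 were high and WT 3 lay at or near the knockout libraries. With WT 1 and WT 2 left out, the median of the 8 genes was 0.11.

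Complex IV had 18 nuclear genes, and they held the widest range of the 5 complexes, from −2.53 to 1.83 around a median of −0.35. Without 6 isoforms that are known from particular tissues or from low oxygen, the other 12 had a median of −0.39, and 9 lay below 0. Cox4i1, the largest nuclear subunit, was at 258, 378 and 409 CPM in KO 1 to 3, against 372, 315 and 287 CPM in WT 1 to 3, and its exons overlap Emc8 on the other strand. Ndufa4 (ENSMUSG00000029632, chr6:11900292-11907497, minus strand), named for complex I but a subunit of complex IV, was at 194, 159 and 165 CPM in KO 1 to 3, against 386, 265 and 169 CPM in WT 1 to 3 (log2 fold change −0.66, SE 0.344). Its median of 979 TPM was the highest of the nuclear genes. Cox7a2l (ENSMUSG00000024248, chr17:83501918-83517330, minus strand) is linked to the joining of complexes III and IV into supercomplexes, and its action in these mice was not examined. It was at 148, 166 and 137 CPM in KO 1 to 3, against 307, 239 and 149 CPM in WT 1 to 3 (log2 fold change −0.62, SE 0.309). Both were high in WT 1 and WT 2, while WT 3 lay within the knockout range.

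The isoforms of heart and skeletal muscle, Cox6a2, Cox7a1 and Cox8b, were read beside their partners in other tissues, Cox6a1, Cox7a2 and Cox8a. Promoters of 2 of these pairs are shown to set each muscle isoform beside its partner. They are RefSeq sequence of GRCm38.p6, the bases before the start site, less any that lie in a GENCODE exon. The windows are chr7:30183921-30184143 on the plus strand and, on the minus strand, chr9:79759879-79760103, chr7:140900447-140900696 and chr19:7217617-7217866. None of the 4 held a motif of the search described at the end, so no base is in capitals.
Cox7a1: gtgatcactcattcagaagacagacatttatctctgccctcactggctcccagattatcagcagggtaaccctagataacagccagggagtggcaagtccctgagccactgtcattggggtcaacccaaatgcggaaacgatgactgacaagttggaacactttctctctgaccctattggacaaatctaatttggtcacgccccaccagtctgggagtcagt
Cox7a2: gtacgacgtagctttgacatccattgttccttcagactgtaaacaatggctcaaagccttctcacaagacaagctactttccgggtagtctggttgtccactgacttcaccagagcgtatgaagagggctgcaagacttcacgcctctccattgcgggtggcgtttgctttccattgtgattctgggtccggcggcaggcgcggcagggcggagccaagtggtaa
Cox8b: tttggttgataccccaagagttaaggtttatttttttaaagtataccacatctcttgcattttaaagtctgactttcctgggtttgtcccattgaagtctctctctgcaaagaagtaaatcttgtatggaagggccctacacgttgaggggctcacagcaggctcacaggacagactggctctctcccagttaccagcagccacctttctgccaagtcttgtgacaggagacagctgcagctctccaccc
Cox8a: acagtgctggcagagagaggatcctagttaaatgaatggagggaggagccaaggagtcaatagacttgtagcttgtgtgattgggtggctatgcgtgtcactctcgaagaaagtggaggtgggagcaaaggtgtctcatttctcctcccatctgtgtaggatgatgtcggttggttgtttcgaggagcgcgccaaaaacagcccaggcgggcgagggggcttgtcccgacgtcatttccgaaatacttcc

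Cox6a2 (ENSMUSG00000030785, chr7:128205435-128206387, minus strand) had 26, 261 and 189 counts in KO 1 to 3, against 1473, 815 and 105 counts in WT 1 to 3, with a log2 fold change of −2.53 (SE 1.22). WT 1 and WT 2 were far above the other libraries, and WT 3 was below KO 2 and KO 3. Cox7a1 (ENSMUSG00000074218, chr7:30184144-30186078, plus strand) had 25, 85 and 93 counts in KO 1 to 3, against 458, 213 and 68 counts in WT 1 to 3 (log2 fold change −2.06, SE 0.891), and was likewise highest in WT 1 and WT 2. The summed muscle markers, 61.5 to 593 CPM in the knockout libraries, against 2573, 2106 and 223 CPM in WT 1 to 3, had those 2 libraries on top as well. So did the summed cornea markers. Cox8b (ENSMUSG00000025488, chr7:140898945-140900446, minus strand) had 55, 169 and 588 counts in KO 1 to 3, against 422, 247 and 220 counts in WT 1 to 3 (log2 fold change −0.32, SE 0.845), and unlike the other two it was highest in KO 3.

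The partner isoforms varied far less. In TPM, Cox6a2 over Cox6a1 was 0.0119, 0.105 and 0.0532 in KO 1 to 3, against 0.655, 0.387 and 0.0410 in WT 1 to 3, and Cox7a1 over Cox7a2 was 0.0820, 0.223 and 0.207 in KO 1 to 3, against 0.741, 0.488 and 0.167 in WT 1 to 3. In WT 1 the muscle isoform of each of these pairs came closest to its partner. Cox8b over Cox8a was 0.0737, 0.203 and 0.414 in KO 1 to 3, against 0.623, 0.380 and 0.225 in WT 1 to 3. Cox8a itself was at 161, 181 and 283 CPM in KO 1 to 3, against 163, 139 and 184 CPM in WT 1 to 3 (log2 fold change 0.36, SE 0.284), with KO 3 above the other 5 libraries.

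Cox4i2 and Cox6b2 ran the other way. Cox4i2 (ENSMUSG00000009876, chr2:152754173-152765037, plus strand), a regulatory isoform known from lung and induced by low oxygen, had 172, 113 and 134 counts in KO 1 to 3, against 10, 25 and 120 counts in WT 1 to 3, with a log2 fold change of 1.44 (SE 0.854). The knockout libraries lay above the WT libraries in CPM by a small margin over WT 3, while WT 1 and WT 2 were far lower. Cox6b2 (ENSMUSG00000051811, chr7:4751792-4753094, minus strand), the testis isoform of Cox6b1, had 100, 162 and 517 counts in KO 1 to 3, against 5, 33 and 179 counts in WT 1 to 3 (log2 fold change 1.83, SE 1.23), and the groups overlapped. The summed retina markers, 18719.9 to 32858 CPM in the knockout libraries, against 60.5, 215 and 20966 CPM in WT 1 to 3, were also lowest in WT 1 and WT 2. So were the summed pigment markers. Ndufa4l2, a paralogue of Ndufa4 induced by low oxygen, had 71, 170 and 101 counts in KO 1 to 3, against 41, 71 and 161 counts in WT 1 to 3 and was the nuclear subunit gene with the lowest level, 12.99 TPM. Its exons overlap Shmt2 on the other strand.

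**Figure D5:**
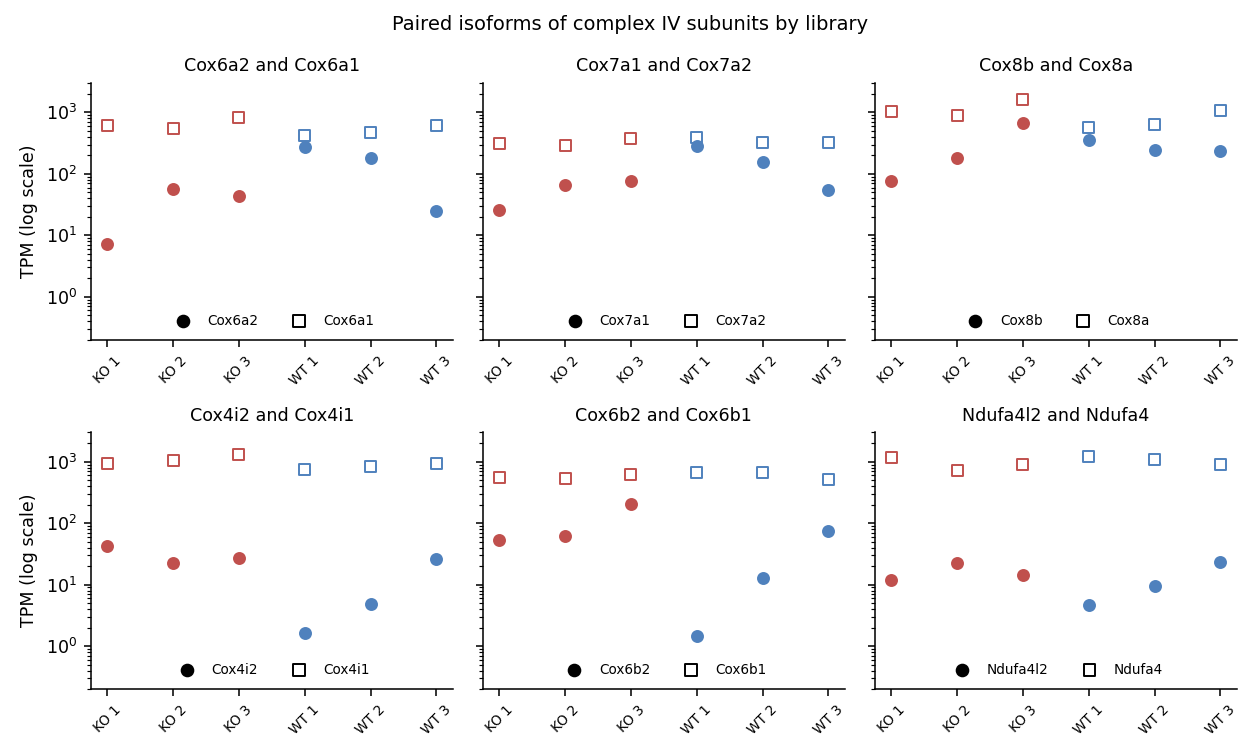
TPM on a log axis is plotted by library for 6 complex IV isoforms (filled circles) and their more widely expressed partners (open squares), with KO libraries in red and WT libraries in blue. Cox6a2 and Cox7a1 are highest in WT 1 and WT 2, Cox4i2 and Cox6b2 are lowest there, and the partners stay within a narrow band.

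Complex V had 17 nuclear genes with a median of −0.32, and 16 lay below 0. Atp5b, the catalytic beta subunit, had the most counts of the nuclear genes and was at 849.9, 852 and 998 CPM in KO 1 to 3, against 988, 867 and 828 CPM in WT 1 to 3, with KO 3 and WT 1 highest. Atp5a1, its alpha partner, was at 511, 545 and 713 CPM in KO 1 to 3, against 692, 621 and 535 CPM in WT 1 to 3, and its exons overlap Haus1 on the other strand. Atp5g1, Atp5g2 and Atp5g3 encode the same mature c subunit of the membrane rotor. Atp5g2 (ENSMUSG00000062683, chr15:102662864-102672352, minus strand) was at 112, 138 and 108 CPM in KO 1 to 3, against 234, 170.3 and 123 CPM in WT 1 to 3 (log2 fold change −0.56, SE 0.287), with WT 1 and WT 2 high. Atp5g1 was at 77.2, 90.4 and 124 CPM in KO 1 to 3, against 190.1, 117 and 89.02 CPM in WT 1 to 3, and Atp5g3 at 163, 160.4 and 249 CPM in KO 1 to 3, against 273, 195 and 179 CPM in WT 1 to 3. Atp5k, subunit e of the dimer interface, was at 21.7, 27.5 and 31.3 CPM in KO 1 to 3, against 50.6, 38.7 and 26.2 CPM in WT 1 to 3 (log2 fold change −0.52, SE 0.292).

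Set side by side, the nuclear medians of the log2 fold change were −0.20 for complex I, −0.06 for II, −0.36 for III, −0.35 for IV and −0.32 for V. In TMM-scaled log2 CPM each nuclear complex had its lowest median level in KO 1 and its highest in WT 1. By share of all counts complexes I, II and V were highest in KO 3, complex II was lowest in WT 2 and complex III lowest in KO 2. Without WT 1 alone the nuclear medians were in that order 0.012, 0.06, −0.087, −0.051 and −0.058. Without WT 1 and WT 2 they were 0.10, 0.14, 0.11, 0.18 and 0.13, all above 0. With library size alone the median of all genes was 0.19. Complex III then stayed at 8 of 8 below 0 (median −0.15), while complex I had 18 of 37 below 0 (median 0.0035). These medians describe the lists, and no difference between complexes was tested.

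Leaving out WT 3, whose retina markers summed to a value within the knockout range, left 8 oxidative phosphorylation genes past an edgeR adjusted p of 0.05. The whole table then had 1961 genes lower (12.9%) and 3205 higher (21.1%) of 15166 tested. Lower in the knockout were Ndufs4 (−0.92), Ndufa8 (−0.72), Ndufa4 (−0.91), Cox7a2l (−0.86), Cox7a1 (−2.53), the complex I accessory subunit Ndufa9 (−0.75) and Ndufs6 (−0.82), an accessory subunit of the NADH-binding arm. Cox4i2 was higher (2.82). None of the 13 mitochondrial genes was among them. The 7 lower and 1 higher of 105 were a smaller share in each direction than in the whole table.

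Other mitochondrial genes were read from lists to set the members beside the rest of the organelle. The 78 genes of the mitochondrial ribosome, a list added later, had a median of −0.26, with 68 below 0, close to the nuclear subunits, and 47 below 0 with library size alone. Their median was −0.069 without WT 1 and 0.041 without WT 1 and WT 2, with 26 of 78 below 0. A list of carriers and related genes had 12 tested of 15, among them ATP/ADP carriers, Vdac pores, creatine kinases and the inhibitor Atpif1. All 12 lay below 0 (median −0.28), and 7 of 12 did with library size alone, where the median of all genes was 0.19. Without WT 1 and WT 2, 3 of 12 lay below 0 (median 0.092). Slc25a5, an ATP/ADP carrier, was at 332, 305 and 295 CPM in KO 1 to 3, against 704, 522 and 325 CPM in WT 1 to 3 (log2 fold change −0.73, SE 0.347). Slc25a4, another ATP/ADP carrier of the list, had a log2 fold change of −0.09 (SE 0.312). The mitochondrial creatine kinase Ckmt1 was at 133, 97.5 and 55.3 CPM in KO 1 to 3, against 257, 209 and 97.6 CPM in WT 1 to 3 (log2 fold change −0.98, SE 0.483). The 16 genes of the citric acid cycle and of pyruvate dehydrogenase had a median of −0.09, with 11 below 0, and 0.11, with 4 below 0, with library size alone. Their median was 0.05 without WT 1 and 0.13 without WT 1 and WT 2, with 0 of 16 below 0. Citrate synthase, Cs, was at 226, 218 and 186 CPM in KO 1 to 3, against 404, 356 and 204 CPM in WT 1 to 3 (log2 fold change −0.62, SE 0.317), and Suclg1, of succinate-CoA ligase, at 41.8, 49.4 and 46.7 CPM in KO 1 to 3, against 94.2, 61.5 and 42.5 CPM in WT 1 to 3 (log2 fold change −0.52, SE 0.309). In Slc25a5, Ckmt1, Cs and Suclg1, WT 1 and WT 2 were the highest libraries.

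The 37 other assembly factors had a median of −0.09, with 24 below 0, and 0.09, with 16 below 0, with library size alone. Without WT 1 the median was 0.0068. Coa3, which acts in the making of mt-Co1 protein, was at 39.5, 37.1 and 34.02 CPM in KO 1 to 3, against 78.96, 59.8 and 39.7 CPM in WT 1 to 3 (log2 fold change −0.69, SE 0.273). Ttc19, which acts on complex III, was at 23.1, 19.5 and 20.8 CPM in KO 1 to 3, against 11.1, 9.31 and 17.8 CPM in WT 1 to 3 (log2 fold change 0.73, SE 0.296), low in WT 1 and WT 2. The 20 genes that copy, transcribe or translate mitochondrial DNA had a median of 0.00, with 10 below 0. Tufm, a translation factor, was at 53.6, 50.3 and 54.1 CPM in KO 1 to 3, against 82.1, 74.7 and 50.6 CPM in WT 1 to 3. The 13 regulators of mitochondrial genes had a median of 0.09, with 5 below 0. Esrra, a nuclear receptor that binds promoters of oxidative phosphorylation genes, was at 55.6, 50.1 and 57.3 CPM in KO 1 to 3, against 76.00, 83.1 and 52.9 CPM in WT 1 to 3, and Gabpa, an ETS factor, at 43.03, 49.99 and 38.8 CPM in KO 1 to 3, against 62.1, 54.3 and 45.3 CPM in WT 1 to 3. The fold changes farthest from 0 in that list were above 0, in Esrrg (log2 fold change 1.45, SE 1.20), Esrrb (log2 fold change 1.44, SE 1.88), Ppargc1b (log2 fold change 1.34, SE 1.20) and Ppargc1a (log2 fold change 1.05, SE 0.716), named after their values were seen. Esrrb, an oestrogen-related receptor like Esrra, was at 302, 192 and 165 CPM in KO 1 to 3, against 0.933, 2.27 and 239.6 CPM in WT 1 to 3. All 4 were lowest in WT 1 and WT 2, as the summed retina and pigment markers were. None of the genes in these lists passed the test.

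Promoters of the nuclear subunit genes were searched for motifs of regulators known to bind such genes. Of the 84 genes, 69 had a promoter in the RefSeq table, and the 250 bases before the start were read on both strands. The NRF1 motif CGCNTGCG was held by 16 of the 69 (23.2%), against 6.94% of 27025 promoters of all genes. The ETS motif CCGGAAGT was held by 3 (4.35%, against 2.93%) and the ERR motif TNAAGGTCA by 2 (2.90%, against 1.14%). The YY1 motif AAGATGGCG was held by 0, against 0.607%. With so low a share among all promoters, 0 of 69 says little, and bases after the start were not searched. The motifs may overlap each other, and N stands for any base. These are matches of letters and not bound sites. The 27025 promoters were not matched to the members for GC content or expression, and the first start listed for each gene was used. Stretches of 30 bases or fewer around the first NRF1 match are shown for 6 of the genes described above, with the match in capitals, 5′ to 3′ on the strand of the gene. In Sdha and Sdhd it is the reverse complement of the motif that matches.
Sdha: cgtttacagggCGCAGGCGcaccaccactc
Sdhd: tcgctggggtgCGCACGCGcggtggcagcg
Ndufa8: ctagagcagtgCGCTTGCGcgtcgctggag
Ndufs6: cgactgctgtgCGCCTGCGccggcac
Atp5g2: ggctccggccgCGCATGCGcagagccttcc
Atp5k: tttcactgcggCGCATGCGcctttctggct

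All 6 are on the minus strand of GRCm38.p6. The stretch of Sdha is chr13:74350319-74350348 and that of Sdhd chr9:50603909-50603938. That of Ndufa8 is chr2:36049349-36049378 and that of Ndufs6 chr13:73328483-73328508. Those of Atp5g2 and Atp5k are chr15:102671070-102671099 and chr5:108434430-108434459. The matches lay between 7 (Ndufs6) and 89 (Sdha) bases before the RefSeq start. By the GENCODE coordinates the stretches of Ndufa8, Ndufs6 and Atp5g2 lie inside the gene, and that of Atp5k overlaps it. Bases in exons were not removed in this search. The windows of Ndufa8, Ndufs6, Atp5g2 and Atp5k had 186, 138, 80 and 49 of 250 bases in GENCODE exons. Those of Sdha and Sdhd had 140 and 130. Genes with a match included Sdha, which lay higher in the knockout libraries, as well as Sdhd, Ndufa8, Ndufs6, Atp5g2 and Atp5k, with log2 fold changes below 0.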

How the data were processed

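Whole-cornea RNA was made into libraries with an mRNA kit from total RNA, per the labels' protocols. The authors deposited 1 table of 18227 genes. The submitters' processing notes name GRCm38 (mm10). The sources used here name no aligner, counting program, annotation or strand setting. The expected counts (estimated reads per gene) the authors deposited are not normalized and were rounded to whole numbers. The TPM values the authors deposited are per length and were used for levels between genes, which are uncertain for the shortest genes. The other 20 columns of values were not used. The totals were 1.41e+07 to 1.55e+07 counts. After TMM scaling 1 CPM was worth 12.9 counts in WT 1, the lowest value, and 16.2 counts in KO 3, the highest.

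Counts were tested in R 4.3.3 with edgeR 4.0.16 (quasi-likelihood, robust, TMM, filterByExpr, genotype as the only term), with Benjamini-Hochberg adjustment over the 14983 genes kept and a threshold of 0.05. The filter removed 3244 genes. The common dispersion had a square root of 0.585. Each SE was obtained from the fold change and the F statistic. limma 3.58.1 (voom) and DESeq2 1.42.0 were alternatives, beside other scalings and filters, the replicate block and leaving out libraries. The code was tested on simulated counts. Medians by library used log2(CPM + 1).

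Ndufa4 and Ndufa4l2 were counted with complex IV, and other genes by symbol. The members and lists were chosen with earlier results of these data known, and the mitochondrial ribosome list after the files were read. Named genes were the mitochondrial genes, the 2 with the smallest p and the 2 with the most counts in each nuclear complex and among the assembly factors, the isoform families, Ndufs4, Ndufa8, the members whose groups do not overlap, and the 2 with the smallest p in each further list. Not every gene this rule picks is printed, and Ndufs1, Ndufa1, Ndufa9, Ndufs6, Ndufb9, Ndufab1, Atp5md, Slc25a4, Esrrg, Esrrb, Ppargc1b and Ppargc1a were added after their values were seen. All 106 members matched GENCODE M21 on GRCm38. Promoters are from RefSeq on GRCm38.p6.

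The labels number the replicates 1 to 3 in both groups. Deviations from the group means correlated at 0.127, 0.378 and 0.227 between libraries of the same number. Libraries of different numbers were not compared, so these values cannot show whether the numbers pair the samples. The labels state no pairing, so the main test had genotype as its only term and the replicate block was an alternative.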

Additional observations from a re-analysis of the deposited data

How the results depend on the processing

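No oxidative phosphorylation gene passed in 14 of 15 alternatives, and leaving out single replicates gave 0 to 8 calls among them and 0 to 5166 in the whole table, the highest values both without WT 3. The DESeq2 Wald test gave 69 calls in the table. The replicate block, which pairs libraries of the same number, gave 0 calls and changed no call; medians were −0.25 for nuclear and −0.16 for mitochondrial genes. The nuclear median was 0.12 with WT 1 and WT 2 both left out, and −0.45 to −0.02 with single replicates left out. The mitochondrial median less the nuclear one was 0.17, and −0.26 to 0.35 with single replicates left out, below 0 only without KO 3. With single replicates left out, mt-Co1 ran from −0.85 to 0.24, mt-Nd5 from −0.26 to 0.48, Sdhc from −0.0145 to 0.48 and Cox8b from −1.50 to 0.16. Signs also changed with WT 1 and WT 2 both left out: mt-Co1 was then 0.48, mt-Nd4l 0.13, Ndufa8 0.0020, Sdhb 0.10, Sdhd 0.078, Uqcrb 0.030, Uqcrc2 0.065, Ndufa4 0.037, Cox7a2l 0.019, Cox6a2 0.67, Cox7a1 0.055, Cox8b 0.34, Atp5k 0.039, Cs 0.0395 and Suclg1 0.12. That setting leaves 1 WT library, whose spread is assumed to be that of the knockout. The cause was not tested. The spread between libraries, with a square root of the dispersion of 0.585, limits which changes can pass.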
